A study of Mus musculus with 3 samples.

Results

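Protamines and transition proteins are the small basic proteins that replace histones while the spermatid nucleus condenses. The transition proteins Tnp1 and Tnp2 are deposited first and the protamines Prm1 and Prm2 then take their place, while Prm3 is a protamine-related gene of the same cluster. Chd5, a chromatin remodeller, and Rnf8, a ubiquitin ligase, are known in mouse spermatids for acting on histones ahead of that exchange. H3K4me3 is the histone mark found at the starts of active genes, and the DNA-binding methyltransferase PRDM9 also places it at recombination hotspots in meiosis.

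The 7 genes Prm1, Prm2, Prm3, Tnp2, Tnp1, Chd5 and Rnf8 were taken by name from 21755 protein-coding genes annotated on chromosomes 1 to 19 and X. A gene was given every narrow peak whose centre lay within 1 kb of any of its annotated transcript starts (GENCODE vM21, mm10), and every broad peak over such a start. H3K4me3 chromatin immunoprecipitation (ChIP) was sequenced from whole adult testis of (C57BL/6J x CAST/Eij)F1 males of Prdm9 genotype Humanized/CAST, with 2 ChIP libraries (antibody Abcam ab8580) and 1 input library. The Humanized allele is the C57BL/6J Prdm9 gene with its zinc fingers replaced by those of a human allele, and no sample lacks either Prdm9 allele. The study's methods describe 1 testis from each of 2 littermates aged 23 weeks, whereas the labels describe the testes of a single male, in which case the spread between the replicates is technical. There is a single condition, so each value below compares genes or regions within these libraries. Whole testis holds many cell types, so a low value from fewer marked cells cannot be told apart from less mark per cell.

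Over the 101978 narrow peak centres the libraries held 17621116 fragments (replicate 1), 19094837 (replicate 2) and 1250138 (input). Of 25 genes chosen as markers of spermatogonia, spermatocytes, round spermatids, Sertoli cells and Leydig cells, 22 had a narrow peak at a start and 23 a broad one. Over all protein-coding genes the shares were 77.4% and 76.5%. Of 6 genes of other tissues 1 had a narrow peak, Gfap, with an enrichment of 1.46. The round spermatid markers, of the stage at which the protamine genes are transcribed, had a narrow peak at 4 of 5 starts and a broad peak at 5 of 5. Beside the shares over all protein-coding genes, such small counts do not set these markers apart.

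The protamine and transition protein genes differed from Chd5 and Rnf8 in the DNA just before the start. The stretches for Prm1, Prm2, Tnp2, Tnp1 and Rnf8 are shown 5′ to 3′ to let the scarcity of CpG at the first 4 be seen beside a CpG-rich promoter. They come from RefSeq's GRCm38.p6, stop at the base before the first start of either annotation, and have CpG in capitals. They lie at chr16:10796887-10797073, chr16:10792106-10792355, chr16:10788661-10788905 and chr1:73015910-73016149 on the reverse strand, and at chr17:29614539-29614788 on the forward strand.
Prm1: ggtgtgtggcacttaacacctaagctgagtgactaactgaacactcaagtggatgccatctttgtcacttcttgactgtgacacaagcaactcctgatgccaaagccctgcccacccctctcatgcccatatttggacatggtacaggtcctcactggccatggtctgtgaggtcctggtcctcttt
Prm2: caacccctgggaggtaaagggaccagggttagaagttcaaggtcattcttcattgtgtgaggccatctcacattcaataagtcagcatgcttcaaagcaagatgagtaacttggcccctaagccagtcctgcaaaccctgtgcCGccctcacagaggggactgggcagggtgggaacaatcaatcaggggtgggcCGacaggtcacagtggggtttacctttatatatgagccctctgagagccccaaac
Tnp2: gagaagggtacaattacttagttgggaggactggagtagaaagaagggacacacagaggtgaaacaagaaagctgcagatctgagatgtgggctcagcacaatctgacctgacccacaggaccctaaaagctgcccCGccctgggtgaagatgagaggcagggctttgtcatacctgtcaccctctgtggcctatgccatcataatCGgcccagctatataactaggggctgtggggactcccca
Tnp1: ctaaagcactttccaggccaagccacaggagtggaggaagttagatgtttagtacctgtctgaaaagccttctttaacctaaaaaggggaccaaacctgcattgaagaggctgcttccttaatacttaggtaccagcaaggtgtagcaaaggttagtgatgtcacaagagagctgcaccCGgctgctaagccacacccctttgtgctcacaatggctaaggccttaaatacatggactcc
Rnf8: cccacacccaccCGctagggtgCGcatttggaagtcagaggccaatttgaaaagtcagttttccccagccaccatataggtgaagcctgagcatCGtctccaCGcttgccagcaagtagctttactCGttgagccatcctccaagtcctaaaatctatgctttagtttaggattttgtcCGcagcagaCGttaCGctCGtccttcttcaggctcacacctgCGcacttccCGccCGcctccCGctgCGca
The stretch shown for Prm1 held 0 CpG in 187 bases, that for Tnp1 held 1 in 240, those for Prm2 and Tnp2 held 2 each, and that for Rnf8 held 14 in 250. The Prm1 and Prm2 stretches are intronic to longer transcripts of the same genes that start further upstream.

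Over the whole promoter window of 300 bases (250 before and 50 after the RefSeq start), Prm1 had 1 CpG, Prm2 had 3, Prm3 and Tnp2 had 4 each and Tnp1 had 6. Chd5 had 32 and Rnf8 had 21, against a median of 14 over 16433 protein-coding genes with a window. The ratio of observed to expected CpG was 0.049 at Prm1, 0.14 at Prm2, 0.16 at Prm3, 0.17 at Tnp2 and 0.31 at Tnp1, all below the median of 0.60, and 0.88 at Chd5 and 0.86 at Rnf8. The share of G and C was 50.7% at Tnp1, 52.7% at Prm1, 54% at Prm2, 56% at Tnp2 and 57% at Prm3, against a median of 57% over all windows. Of 4 motifs searched on both strands, TATAAA was found in the Prm2 window alone among the 7 genes and in 12.8% of all windows. TATATA, which overlaps it in Prm2 and was added after the sequences had been seen, was found at Prm2 and Tnp2 and in 4.91% of windows. TGACG, the core of the cyclic AMP response element, was found at Chd5 alone and in 24.5% of windows, and the full TGACGTCA at 0 of 7 and in 2.44%. A match is a description of letters and not a site. The extent of the CpG scarcity depends on the window. With 500 bp on either side of the start, the observed over expected ratio was 0.34 at Prm1, 0.29 at Prm2 and 0.25 at Prm3. It was 0.31 at Tnp2, 0.40 at Tnp1, 0.84 at Chd5 and 0.86 at Rnf8.

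Narrow peaks were found at 6 of the 7 genes, with Tnp2 the exception, while 77.4% of all protein-coding genes had one. Prm2 and Prm3 shared a single centre, and Rnf8 had a second, low one, so the 6 genes rest on 6 distinct centres, of which 5 are the highest of a gene. Broad peaks lay over a start of 7 of 7 genes, against 76.5% of all protein-coding genes. With a limit of 500 bp, 4 of 7 genes kept a narrow peak, against 71.7% of all protein-coding genes, because the centres given to Prm1 and Prm3 lay further than that from their starts.

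At Prm1, which encodes the protamine found in sperm of all mammals, the centre at chr16:10797406 was covered by 126 fragments (replicate 1), 125 (replicate 2) and 8 (input). Both ChIP libraries stood far above the input and hardly differed from each other. The ratio of ChIP to input fragments was 31.4 (95% exact interval 15.7 to 73.5, which covers counting error only), and the deposited enrichment was 14.6. Here and below the ratio adds the fragments of both replicates and is not scaled for depth, so it is no fold over input. At Prm1 a single replicate gave 15.75 (replicate 1) and 15.6 (replicate 2). The deposited enrichment is the authors' estimate over local background from both replicates, where 0 means none. The centre lay 520 bp upstream of the Prm1 start that carries the short transcript, inside the intron of a longer transcript, and 537 bp from the start of the antisense gene Gm46563. ChIP fragments have no strand, so the peak cannot be assigned to Prm1 or to Gm46563.

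At Prm2, the second protamine, the centre at chr16:10791748 was covered by 336 and 300 ChIP fragments, replicate 1 first, and by 18 of the input. It lay 357 bp inside the gene, in a coding exon, with a ratio of 35.3 (22.2 to 60.01) and an enrichment of 16.5. The same centre was the only one near Prm3, where it lay 834 bp upstream of the start, a distance reached by 1.78% of genes with a narrow peak. Its signal therefore belongs to Prm2 and Prm3 together and gives no separate level for Prm3.

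At Tnp1, which encodes transition protein 1, the centre at chr1:73015745 was covered by 165, 160 and 16 fragments. It lay 164 bp inside the gene, in a coding exon, with a ratio of 20.3 (12.3 to 36.0) and an enrichment of 9.43, the lowest of the 6 genes. It also lay 54 bp from a start of the antisense gene 1700027A15Rik, and the shares of the antisense gene and Tnp1 cannot be told apart.

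At Chd5, the centre at chr4:152338936 was covered by 712, 791 and 19 fragments, with a ratio of 79.1 (50.5 to 132) and an enrichment of 37.1. It lay in the 5′ UTR, 49 bp after the nearest start. At Rnf8, the centre at chr17:29615076 was covered by 2166, 2390 and 25 fragments, with a ratio of 182 (123 to 282) and an enrichment of 85.7, the highest of the 7 genes. It lay 108 bp after the nearest start, in a coding exon, and within 1 kb of the starts of the protein-coding Gm28043 and of a divergent non-coding gene. In order of the ratio, Tnp1, Prm1 and the centre shared by Prm2 and Prm3 had intervals that overlapped one another. The interval of Chd5 overlapped those of Prm1, of Prm2 and Prm3 and, slightly, of Rnf8, and that of Rnf8 lay above those of all protamine and transition protein genes.

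**Figure D1:**
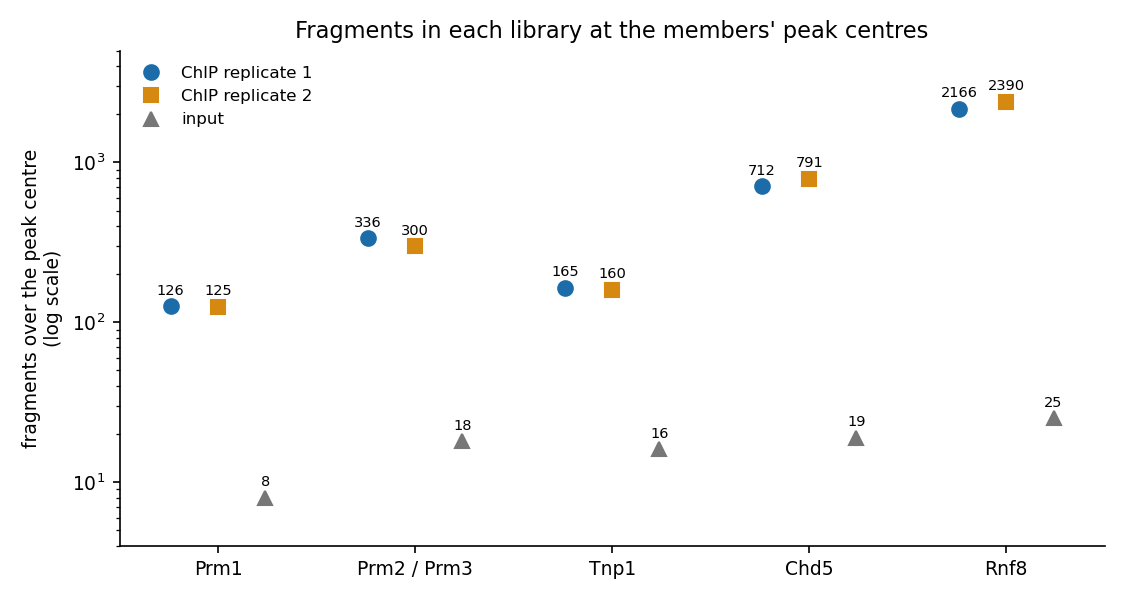
Fragments over the peak centre (vertical axis, log scale) in ChIP replicate 1, ChIP replicate 2 and the input, 1 point per library, for the highest centre of each of the 6 genes with a narrow peak, 5 centres in all. The ChIP points of a centre lie close together, from 125 and 126 fragments at Prm1 to 2166 and 2390 at Rnf8, while the input stays between 8 and 25.

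No difference between the replicates was called at the 6 centres. Replicate 1 gave 50.2% of the ChIP fragments at Prm1, 52.8% at the centre of Prm2 and Prm3, 50.8% at Tnp1, 47.4% at Chd5, 47.5% at the high Rnf8 centre and 38.1% at the low one, against 48.0% over all narrow peaks. A two-sided exact binomial test with Benjamini-Hochberg adjustment over all narrow peaks called 0 of the 6 centres, against 0.773% of all narrow peaks. The smallest adjusted p of that exact test was 0.41, for the centre of Prm2 and Prm3, which was the 1 centre of 6 with an unadjusted p under 0.05 (p = 0.016). Over all narrow peaks, 8.23% had an unadjusted p under 0.05 in the exact test. A beta-binomial test, which allows extra spread between libraries, also called 0 of 6, and it called 14 narrow peaks in all. At an unadjusted p under 0.05 it had 0 of 6, against 3.74% of all narrow peaks.

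Compared with other promoters, the protamine genes and Tnp1 had narrow peaks below the median height, inside very wide broad peaks. Among 16844 protein-coding genes with a narrow peak the median enrichment was 37.6 and the middle 50% ran from 14.7 to 65.3. Tnp1 stood at percentile 16.9, Prm1 at 24.98, Prm2 and Prm3 at 27.7, Chd5 at 49.6 and Rnf8 at 88.9. Ranked instead by the ratio of a single replicate (1, then 2) to input, the percentile was 25.8 and 23.4 for Prm1, 30.9 and 25.9 for Prm2 and Prm3, 18.5 and 16.1 for Tnp1, 49.8 and 50.6 for Chd5 and 89.0 and 90.0 for Rnf8. Both rankings divide by the same input, so they are not independent of each other. With genes that have no narrow peak set at 0, the percentiles by enrichment rose to 35.6 for Tnp1, 41.9 for Prm1, 44.0 for Prm2 and Prm3, 61.0 for Chd5 and 91.4 for Rnf8.

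The width of the broad peak ran the other way. A single broad peak of 23.9 kb, chr16:10780301-10804200, lay over starts of Prm1, Prm2, Prm3 and Tnp2. It also covered the neighbouring gene Socs1, so its width is that of a merged region and not of the protamine promoters alone. A broad peak of 22.8 kb, chr1:73007701-73030500, lay over Tnp1. It also covered starts of the antisense gene 1700027A15Rik, so its width is not that of the Tnp1 promoter alone. The median width over 16634 protein-coding genes with a broad peak at a start was 3400 bp, and both peaks stood at percentile 99.4 of those genes. Of all 98334 broad peaks, 53 (0.0539%) were at least as wide as the Prm peak and 58 (0.0590%) at least as wide as the Tnp1 peak. The broad peak of Chd5 was 12.7 kb wide (percentile 96.7) and that of Rnf8 was 5.7 kb wide (percentile 78.7). Of 111 protein-coding genes with a broad peak at least as wide as that of Tnp1, 107 had a narrow peak at a start, and 27 of these had an enrichment no higher than that of Tnp1. Neighbouring genes can share a broad peak, so these counts are not of independent regions.

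**Figure D2:**
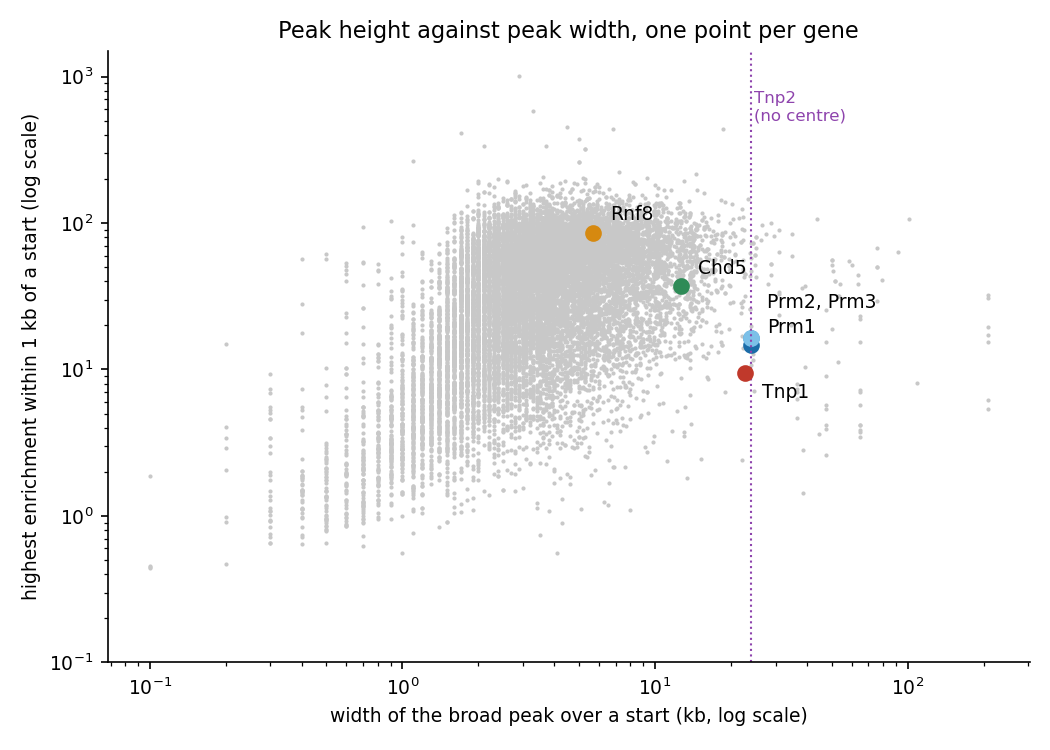
Highest enrichment within 1 kb of a start (vertical axis, log scale) against the width of the broad peak over a start (horizontal axis, kb, log scale), with 1 grey point per protein-coding gene and coloured points for the named genes. Prm1, Prm2, Prm3 and Tnp1 lie at the right edge of the main cloud near 23 kb and in its lower part, Rnf8 lies high at 5.7 kb, and a dotted line marks Tnp2, which has a broad peak but no centre.

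Peak height was read against promoter CpG content as well, since CpG-poor promoters as a class had lower peaks. Of 2920 genes with 0 to 2 CpG in the window, 27.6% had a narrow peak, with a median enrichment of 12.8, whereas of 5773 genes with 21 or more CpG, 99.5% had one, with a median of 55.7. Among the genes of its own CpG class that had a narrow peak, Prm1 stood at percentile 54.5. Prm2 and Prm3 (3 to 5 CpG, where 51.9% of genes had a narrow peak) stood at 60.2 on the same basis. Their heights were near the middle of the genes with a peak, and not of the whole class, in which many genes had none. Tnp1 (6 to 10 CpG) stood at percentile 35.4, Chd5 at 29.4 and Rnf8 at 83.0. The width stayed at percentile 99.2 for Prm1, 99.4 for Prm2, Prm3 and Tnp2 and 99.6 for Tnp1 within the same classes. These percentiles are descriptions with no test, as the members were chosen by name.

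**Figure D3:**
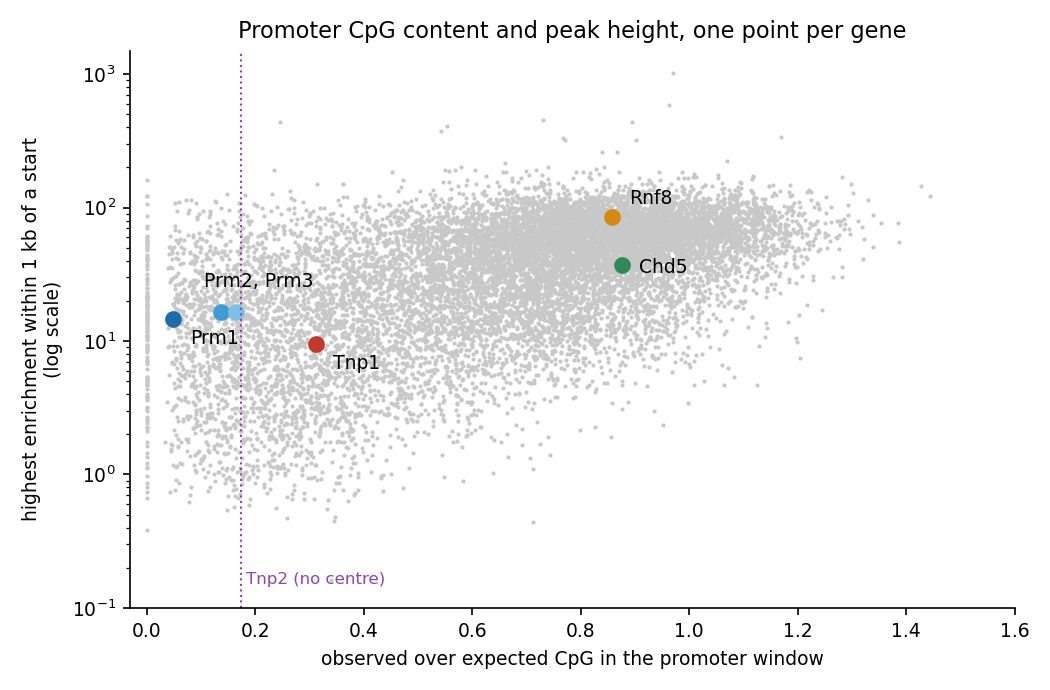
Highest enrichment within 1 kb of a start (vertical axis, log scale) against the ratio of observed to expected CpG in the promoter window (horizontal axis), with 1 grey point per protein-coding gene and coloured points for the named genes. Prm1, Prm2, Prm3 and Tnp1 lie at 0.31 or below on the horizontal axis, Chd5 and Rnf8 lie at 0.86 or above, and the dotted line marks Tnp2, which has no centre.

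Prm1, Prm2, Prm3 and Tnp2 lie next to each other on chromosome 16, all on the reverse strand, and were described as a single locus as well. The broad peak held 4 narrow centres over its 23.9 kb. The first belonged to Socs1, a suppressor of cytokine signalling next to Tnp2, at chr16:10784848 with 2056, 1980 and 33 fragments and an enrichment of 57.5. The next were the centre of Prm2 and Prm3, 6.9 kb further on, and the Prm1 centre, 5658 bp after that. The last, at chr16:10799994, lay 2588 bp beyond the Prm1 centre inside the long Prm1 intron, with 75, 113 and 6 fragments and an enrichment of 14.6. At that last centre replicate 1 gave 39.9% of the ChIP fragments, which the exact binomial test did not call (adjusted p = 0.52). The Socs1 centre was the only one of the 4 that the exact binomial test called (50.9% from replicate 1, adjusted p = 0.030), and the beta-binomial test did not call it (adjusted p = 1).

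Tnp2, the gene of transition protein 2, had a broad peak over its start and no narrow centre near it. The start at chr16:10788660 lay 3088 bp from the closest centre, which is that of Prm2 and Prm3, and on the other side the next centre is that of Socs1. Such a combination is uncommon, since 1.85% of protein-coding genes with a broad peak over a start (307 of 16634) had no narrow centre within 1 kb. The round spermatid marker Acrv1, which encodes an acrosomal protein, was another of these genes. Of the 307 genes, 4 (Tnp2 included) had a broad peak as wide as that of Tnp2, and their median width was 4300 bp. The absence of a centre is no measure of absent H3K4me3 at Tnp2, because a centre marks a local maximum and the start lies inside the merged region.

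**Figure D4:**
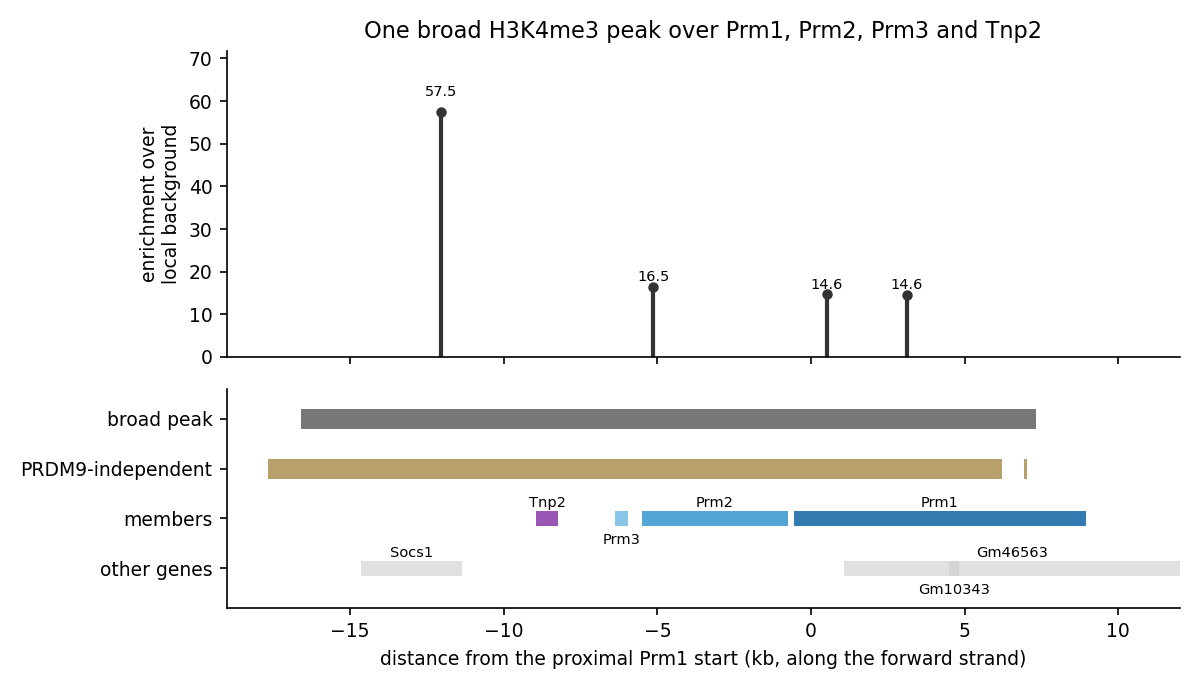
Enrichment of the 4 narrow centres (upper panel, vertical axis) and the extents of the broad peak, the PRDM9-independent regions and the annotated genes (lower panel) by distance from the proximal Prm1 start (horizontal axis, kb). The broad peak covers Socs1, Tnp2, Prm3 and Prm2 and most of Prm1, the Socs1 centre at 57.5 is the tallest, and no centre lies at Tnp2.

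The distal Prm1 start, at chr16:10805839, lay outside the broad peak and 5845 bp from the nearest centre. The distal Prm2 start, at chr16:10796134, lay inside the broad peak, 1272 bp from the Prm1 centre. Without the Socs1 centre, the highest enrichment in the Prm broad peak was 16.5, at percentile 11.8 of the highest enrichments in the 76 broad peaks of 20 kb or more. With it, the percentile was 61.8. The Prm broad peak held 1.67 centres per 10 kb, against a median of 3.75 in those wide peaks, and stood at percentile 2.63. Gm10343, a processed pseudogene in the Prm1 intron, and Gm11172, a short gene beyond the distal Prm1 start, had no centre within 1 kb.

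The Tnp1 broad peak held more centres. There were 8, or 3.51 per 10 kb (percentile 40.8 of the broad peaks of 20 kb or more), with enrichments between 2.10 and 11.6. Its highest enrichment stood at percentile 10.5 of those wide peaks, near the 11.8 of the Prm broad peak without the Socs1 centre. The centre nearest to the Tnp1 start was not the highest: the centre 3317 bp upstream of the start, at chr1:73019226, had 99, 101 and 8 fragments and an enrichment of 11.6. The centres at chr1:73023022 and chr1:73025170 had enrichments of 10.1 and 10.6 and lay within 1 kb of other starts of 1700027A15Rik. The inputs were 5 to 16 fragments, and the ChIP-to-input intervals of 6 other centres overlapped that of the Tnp1 centre, so no order among those can be drawn. The exception was the lowest centre, at chr1:73008291, with an interval of 2.18 to 11.8.

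**Figure D5:**
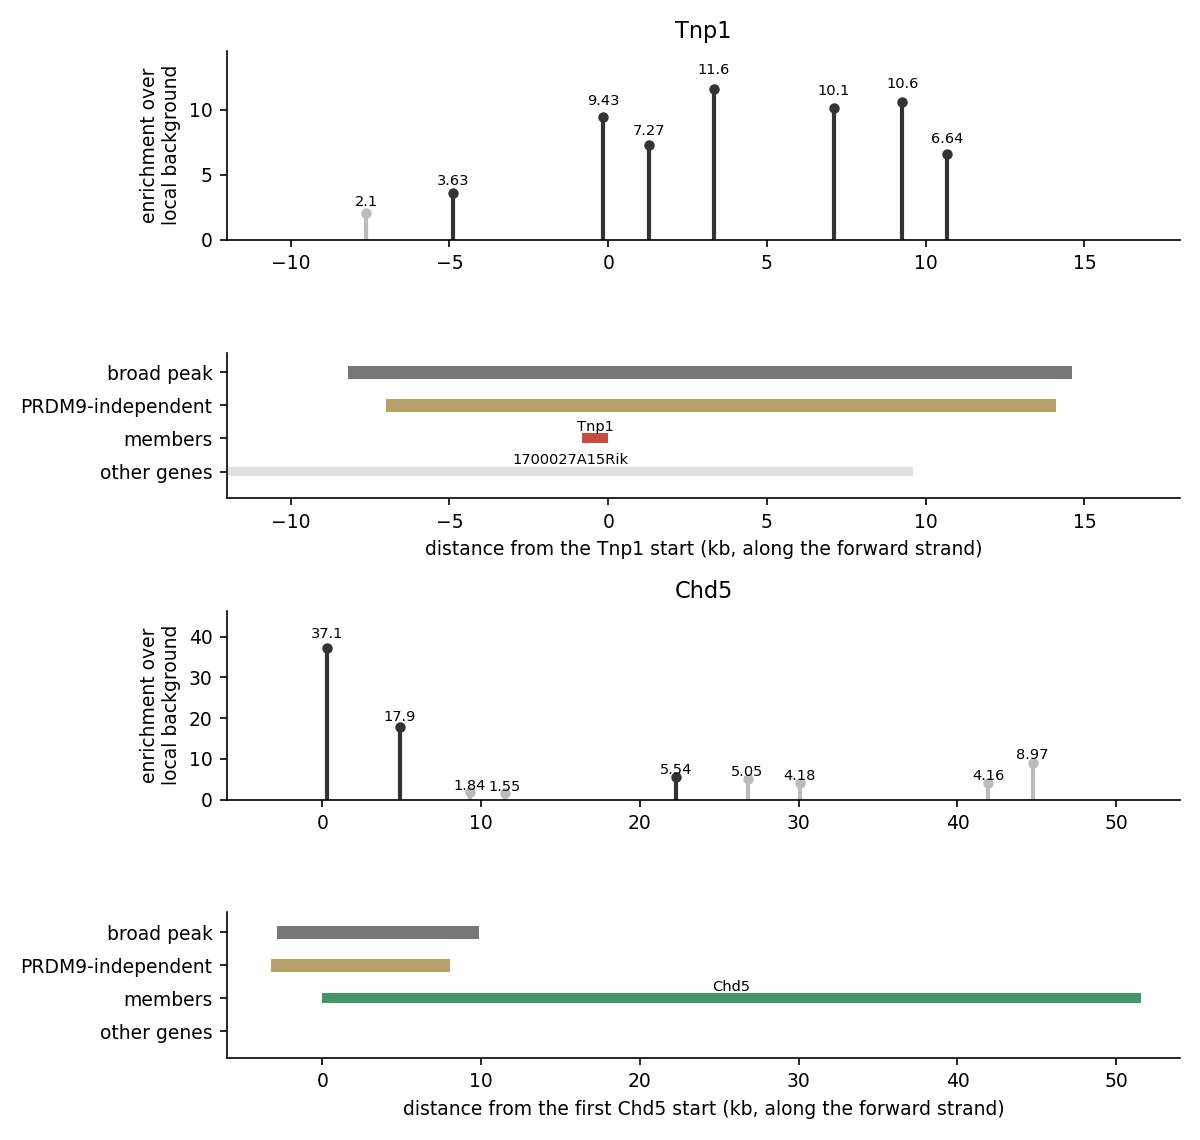
Enrichment of narrow centres (vertical axes) and the extents of broad peaks, PRDM9-independent regions and genes by distance from the start (horizontal axes, kb) for Tnp1 (upper panels) and Chd5 (lower panels), with centres outside PRDM9-independent regions in light grey. The Tnp1 broad peak holds 8 centres of which none exceeds 11.6, while Chd5 has 37.1 at its start and 8 lower centres along the gene.

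The broad peaks of all 7 genes overlapped the regions that the authors had set aside as independent of PRDM9 because mice carrying unlike Prdm9 alleles have them too. The overlap covered 95.8% of the Prm broad peak, 92.5% of that of Tnp1, 85.8% of that of Chd5 and 87.7% of that of Rnf8. Among broad peaks over protein-coding starts, 93.6% overlapped such a region, so 7 of 7 is near what any promoter gives. The highest centre of each of the 6 genes lay inside these regions, and the second Rnf8 centre lay outside. Over all narrow peaks, 39445 lay inside such regions and 62533 outside. No share is given here for centres at gene starts alone, so the count does not set these genes apart from other promoters. The region over the Prm locus was itself 23.9 kb long, and that over Tnp1 21.1 kb.

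Centres outside the PRDM9-independent regions were found in the gene bodies of Chd5 (51.5 kb) and Rnf8 (30.2 kb) and in 0 of the other 5, which are 0.41 to 9.51 kb long. Over all protein-coding genes 48.3% held such a centre, 16.2% of those under 10 kb and 70.8% of those of 30 to 60 kb, and the split among the members is also one between short and long genes. Of 9 centres within Chd5, 6 lay outside such regions, a number reached by 1.15% of genes of 30 to 60 kb. The highest of these, at chr4:152383380 in an intron, had 106, 126 and 12 fragments and an enrichment of 8.97, at percentile 90.1 of the 62533 narrow peaks outside the regions, whose median was 2.79. The other 5 had enrichments between 1.55 and 5.05, the largest of which rested on 1 input fragment. Rnf8 had 1, at chr17:29628074, with 8, 13 and 5 fragments and an enrichment of 1.84, which is 562 bp upstream of a non-coding transcript start. In the Tnp1 broad peak 1 centre of 8 lay outside, 6783 bp from the gene, with 14, 24 and 8 fragments and an enrichment of 2.10. The nearest one to the Prm genes was 32.5 kb from Tnp2, with 4, 16 and 7 fragments and an enrichment of 1.21.

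Other genes of the histone-to-protamine exchange had taller narrow peaks than the protamine genes, with 2 exceptions at Prm2 and Prm3, and smaller broad peaks, given here as counts with no test. All 45 listed genes, which include histone acetylation and ubiquitination enzymes, variant histones, chaperones and spermatid transcription factors, had a narrow peak and a broad peak at a start. Their median enrichment was 67.4, against 37.6 for all protein-coding genes and 16.5 for the 6 members with a narrow peak, 45 of 45 exceeded Prm1 and Tnp1, and 43 of 45 exceeded Prm2 and Prm3. Chd5 was exceeded by 39 of them and Rnf8 by 10. These counts compare enrichments without intervals, and 2 of the variant histone genes share a centre but are counted separately. They were also not matched for promoter CpG content, and CpG-poor promoters as a class had lower peaks. The highest were Ppp1cc, a protein phosphatase subunit with 2663, 2872 and 16 fragments and an enrichment of 163, Dot1l, the H3K79 methyltransferase, at 119, and Ube2b, a ubiquitin-conjugating enzyme, at 107. The lowest were Ctcfl, a testis paralogue of CTCF with 307, 409 and 22 fragments and an enrichment of 15.2, H1f6, the testis linker histone H1t, at 15.7, and Hmgb4, an HMG-box protein of spermatids, at 20.9. Ctcfl and H1f6 were so close to the enrichment of 14.6 at Prm1 that no order between them and Prm1 can be drawn. Their broad peaks ran from 1.5 to 12.7 kb with a median of 6.7 kb, so 0 of 45 reached the width at Tnp1 or the Prm locus.

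Over 16327 genes with both kinds of peak, the genes most like Prm1 in log2 enrichment, log2 broad width and log2 replicate ratio were found by Euclidean distance. Mapk8ip1, a scaffold protein of JNK signalling, came first at a distance of 0.20, with 259, 264 and 19 fragments, an enrichment of 12.8 and a broad peak of 24500 bp. Prm2 and Prm3 followed at 0.23, with the broad peak they share with Prm1, so that likeness comes in part from counting the same region.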

How the data were processed

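H3K4me3 was profiled in whole testis with 2 ChIP libraries and 1 input library. Per the study's methods, the authors aligned paired reads (BWA followed by Stampy, build mm10), discarded duplicates, improper and ambiguous pairs, and counted fragments per base with SAMtools and bedtools. The authors deposited, for each narrow peak, the count of fragments from each library over the centre, not normalized. The deposited enrichment is the authors' maximum likelihood estimate of signal over local background, jointly from both replicates, where 0 means none. It becomes imprecise where the input is low. The deposited p-value comes from the authors' likelihood ratio test of that enrichment, with a limit of 1e-06 for narrow peaks and 1e-05 for the 100 bp bins merged into broad peaks. Peaks were called jointly, so replicates were compared only by fragments at shared centres, and a broad peak can join neighbouring genes. For broad peaks and PRDM9-independent regions only positions were used.

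Starts came from GENCODE vM21, and chromosome lengths of GRCm38.p6 hold all peak positions. Overlap meant at least 1 bp. Replicate shares were tested by a two-sided exact binomial test (the smaller tail, doubled) against the share of replicate 1 in all narrow peaks, called at an adjusted p under 0.05. A check on simulated counts drew them without extra spread between libraries, so it cannot tell how the test behaves under such spread. The p-values of the exact test allow for counting noise in these libraries only, and do not measure spread between animals. Ratio intervals are Clopper-Pearson intervals of ChIP among ChIP and input fragments. Promoter windows came from RefSeq and matched the genome letter for letter at the 7 members. The text names all members, all genes within 10 kb of the Prm locus, the 3 highest and 3 lowest exchange genes, the 3 genes most like Prm1, and the nearest centre of a member without one. Gfap, Acrv1, the neighbours sharing a centre and the additional centres were chosen after their values were seen. The width percentiles and CpG classes were also chosen after the data had been seen. The members and lists were chosen with earlier results of these data known. Alternatives covered distances, starts, thresholds, overlaps, scalings, added counts and single replicates. Computations used scipy 1.17.1, pandas 2.3.3, numpy 2.4.6, pysam 0.24.0 and matplotlib 3.10.9 under Python 3.11.15.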

Additional observations from a re-analysis of the deposited data

How the results depend on the processing

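Members with a narrow peak numbered 6 at 2 kb (80.4% of all protein-coding genes), with coding starts alone (76.3%) and with a deposited p under 1e-10 (76.2%), and 4 at 500 bp (71.7%). The numbers with a broad peak, with a PRDM9-independent overlap and with replicates that differ did not change under the alternatives run. The median percentile of the 6 members with a narrow peak, 27.7, became 44.0 with genes without a peak set at 0 and 32.9 with the nearest peak, and 25.9 to 30.9 with a single replicate. The median CpG percentile of the 7 members, 18.6, became 33.4 with 500 bp on either side of the start. That of Prm1 moved most, from 5.18 to 33.4. The median ratio of ChIP to input was 35.3, or 33.5 with 1 added to ChIP and input, an alternative chosen after seeing the data. From a single replicate, scaled to the depth of both and with 1 added, it was 30.5 to 37.0. With 5 added, the Prm1 ratio fell from 31.4 to 19.7. Input counts of 8 to 25 limit the precision of every ratio. No paired analysis was possible because the input has a single replicate and the ChIP libraries form 1 group. The composition of the proteins was not run, since no protein table was used here.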
